A study of Mus musculus with 4 samples.

Results

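The genes described here are 10 that mark epithelial adhesion or its loss, taken by name from the 46095 gene rows of a stomach RNA-seq table. They are the cadherins *Cdh1* and *Cdh2*, the catenin *Ctnnb1*, *Epcam*, the filament gene *Vim* and the transcription factors *Snai1*, *Snai2*, *Zeb1*, *Zeb2* and *Twist1*. Stomach RNA of C57BL/6 mice at 12 weeks of age was compared between 2 WT samples and 2 samples of the genotype *Atp4b-cre;MycOE*, labelled MYC-KI. In MYC-KI mice, Cre driven by the promoter of the proton pump gene *Atp4b* switches on a human *c-Myc* transgene in the parietal cell lineage, and the mice carry 1 copy of the floxed transgene allele. The control mice carry the floxed allele on both chromosomes (*Myc* fl/fl) and no Cre, so the transgene is present but silent in WT. Of the table's samples, WT rep2 had 17846 counts of *Xist*, a transcript of the inactive X chromosome, and the other 3 had 85 to 201, so the genotypes are not matched for sex. The labels do not say whether samples of a genotype came from separate mice, and p-values measure the spread between these samples only.

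E-cadherin, encoded by *Cdh1*, holds neighbouring epithelial cells together at adherens junctions, and β-catenin (*Ctnnb1*) ties its tail to the actin skeleton and also acts with TCF factors in WNT signaling. Epithelial-mesenchymal transition is the program in which epithelial cells give up these contacts, classically by repression of *Cdh1* through E-box sequences bound by SNAIL, ZEB and TWIST factors, with a gain of N-cadherin (*Cdh2*) and vimentin (*Vim*). The same mesenchymal genes are normally on in fibroblasts, muscle, vessels and leukocytes of the stomach wall, and *Cdh1* and *Epcam* in its lining epithelium.

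Before any comparison the order of the MYC-KI counts was corrected, by giving them row by row to the names put in character-code order. With the names as deposited, the mean log2(count + 1) of the genotypes had a Pearson's r of 0.524 across genes, which are not independent replicates, and after the assignment it was 0.985, against 0.986 between the WT samples. In the 61 rows around each of the 10 genes r lay between 0.964 and 0.992 after the assignment. For the 8 genes whose row moves it lay between -0.166 and 0.116 with the names as deposited. The rows of *Ctnnb1* and *Epcam* have the same position in either order, so their counts do not depend on this step. The column totals were 30260305 to 41463647 counts.

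The mouse *Myc* gene, which is not the human transgene, had 1062 and 759 counts in the WT samples, against 735 and 1091 in MYC-KI after the assignment. Its log2 fold change was -0.35 (standard error 0.14, adjusted p = 0.163 from edgeR), so the mouse *Myc* row was not higher in the libraries labelled MYC-KI. With the names as deposited the MYC-KI counts beside *Myc* were 4920 and 6600. Whether reads of the human transgene were counted in the mouse row is not given in the sources used here, and on the assigned names the row does not check the genotype labels. The libraries did differ by label in markers of parietal and chief cells, with 6 of 6 and 4 of 4 called lower in MYC-KI. WT and MYC-KI stand below for the libraries with these labels.

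In the libraries labelled MYC-KI *Zeb2* was lower, and it was the only gene of the 10 that passed the test. The epithelial genes *Cdh1*, *Ctnnb1* and *Epcam* lay above WT in both MYC-KI samples, *Epcam* by the most, and the 7 other genes lay below WT in both. A gene was called when the adjusted p-value of edgeR's quasi-likelihood test was under 0.05 and the absolute log2 fold change above 0.585, a 1.5-fold change. All 10 genes passed the filter on low counts. Of these 0 were called higher and 1 lower, against 5.65% of the 17643 tested genes called higher and 5.08% called lower (10.7% in all). By unadjusted p-values under 0.05, there were 1 higher (*Epcam*) and 3 lower (*Cdh2*, *Vim* and *Zeb2*), where 34.1% of all tested genes had such a p-value. DESeq2, the tool of the study's methods, called the same 4 genes in these directions, against 18.0% of the genes it gave an adjusted p-value. Groups of 2 that do not overlap were common in these libraries, with 33.3% of all tested genes higher and 31.5% lower in both MYC-KI samples (64.9% in all), so the separation of 3 members upward and 7 downward is read beside those shares. With scaling by library size alone 3 members separated upward and 4 downward, beside 48.0% and 20.0% of all tested genes, and *Snai1*, *Twist1* and *Zeb1* overlapped. In simulated counts modelled on these samples, edgeR recovered 38 of 100 genes that differed by 1 on the log2 scale. Of 100 that differed by 2 it recovered 86. In these counts edgeR made 3 other calls, and DESeq2 made 18. Recovery at the count levels of the single members was not tested.

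**Figure D1:**
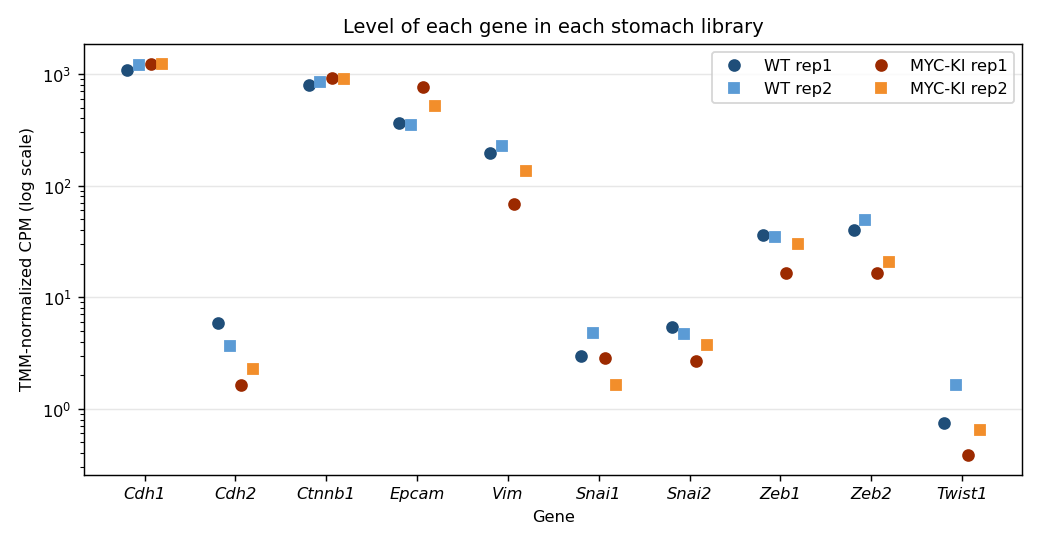
TMM-normalized CPM (log axis) of the 10 genes in each library, with 1 point per library (blue, WT; red and orange, MYC-KI). *Cdh1* sits between 1095 and 1241 CPM in all 4 libraries, and *Zeb2* falls from 40.3 and 49.5 CPM in WT to 16.6 and 20.7 in MYC-KI.

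*Cdh1*, the epithelial cadherin, was among the more abundant of the 10. *Cdh1* (ENSMUSG00000000303.12, GRCm38 chromosome 8, 106603351 to 106670246, plus strand) had 36740 and 33476 counts in the WT samples, against 42076 and 54483 in MYC-KI. As CPM (TMM-normalized counts on a shared library size), these were 1095 and 1200 in WT and 1241 and 1220 in MYC-KI. The MYC-KI values lay just above the higher WT sample, and the gap was smaller than the distance between the WT samples. The log2 fold change of *Cdh1* was 0.10 (standard error 0.10, adjusted p = 0.535 from edgeR). It was 0.035 without WT rep1, 0.17 without WT rep2 and 0.32 with scaling by library size alone, with no call.

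*Ctnnb1* followed *Cdh1* closely. It had 26772 and 23787 counts in the WT samples, against 31075 and 40510 in MYC-KI, or 797.7 and 852.6 CPM against 916.2 and 906.9. Its log2 fold change was 0.14 (standard error 0.09, adjusted p = 0.343 from edgeR), 0.096 without WT rep1 and 0.37 with library size alone. Within each library, where no scaling enters, a ratio chosen after the values were seen gave 0.729 and 0.711 *Ctnnb1* counts for each *Cdh1* count in WT and 0.739 and 0.744 in MYC-KI. The balance of these junction partners thus differed by 0.04 on the log2 scale between the genotypes.

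*Epcam* encodes an adhesion glycoprotein of epithelial surfaces that is shed and cleaved to signal to the nucleus. *Epcam* (ENSMUSG00000045394.9, chromosome 17, 87635979 to 87651129, plus strand) had 12231 and 9651 counts in the WT samples, against 25783 and 22983 in MYC-KI. The normalized level was 364.5 and 345.9 CPM in WT and 760.2 and 514.5 in MYC-KI. Both MYC-KI samples were high, and MYC-KI rep1 was 1.48 times MYC-KI rep2. The log2 fold change was 0.84, a 1.79-fold difference (standard error 0.21, adjusted p = 0.0705 from edgeR), and the gene was not called. DESeq2 gave 0.83 with an adjusted p of 0.00154. Over the 10 alternatives run on the assigned names the adjusted p-value of *Epcam* lay between 0.00154 and 0.320, with 4 calls, and the log2 fold change between 0.54 without MYC-KI rep1 and 1.10 without MYC-KI rep2.

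Relative to *Cdh1* in the same library, a ratio chosen after the values were seen, *Epcam* was at 0.333 and 0.288 counts per count in WT and at 0.613 and 0.422 in MYC-KI. The log2 ratio was 0.71 higher in MYC-KI (-1.69 ± 0.15 in WT and -0.98 ± 0.38 in MYC-KI, SD, n = 2 each), and both MYC-KI libraries lay above both WT libraries. *Cdh1* differed little, so the ratio largely repeats the difference in *Epcam*.

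The start of *Epcam* is shown because it was the member with the largest positive fold change and because the motifs of both MYC and the SNAIL and ZEB factors can be read in it. RefSeq promoter windows (GRCm38.p6, 250 bases before and 50 from the annotated start on) were matched for 6 of the 10 genes, in 10 windows. They were searched on both strands for the MYC E-box CACGTG, which reads the same on either strand. They were also searched for the E-box that SNAIL and ZEB proteins bind, written CAGGTG here. On the other strand that box reads CACCTG. No window was matched for *Cdh1*, *Cdh2*, *Snai2* and *Zeb1*, so their promoters were not searched. Of the windows searched, only those of *Epcam* and *Snai1* held either motif. The runs below have the motifs in capitals.
*Epcam*, 250 bases before the start, chr17:87635729-87635978, plus strand: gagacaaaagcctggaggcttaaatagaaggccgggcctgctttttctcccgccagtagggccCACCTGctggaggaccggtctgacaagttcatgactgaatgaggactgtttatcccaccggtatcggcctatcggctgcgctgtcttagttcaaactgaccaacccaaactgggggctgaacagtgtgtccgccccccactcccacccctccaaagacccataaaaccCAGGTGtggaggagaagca
*Epcam*, site after the start, chr17:87635999-87636024, plus strand: actgattctgCACGTGagacctgcgg
*Snai1*, 250 bases before the start, chr2:167537945-167538194, plus strand: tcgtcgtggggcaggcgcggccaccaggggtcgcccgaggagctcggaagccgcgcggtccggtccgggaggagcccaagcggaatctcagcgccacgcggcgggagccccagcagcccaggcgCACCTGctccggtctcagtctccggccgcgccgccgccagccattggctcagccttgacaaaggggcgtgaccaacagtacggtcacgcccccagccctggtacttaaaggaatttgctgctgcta

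In *Epcam* the CACGTG begins at base 31 counted from the start, and the other E-boxes begin 19 and 187 bases before it. None of the 3 overlap. In *Snai1* the CACCTG begins 126 bases before the start. Of 32817 promoter windows of this length, 7.15% held CACGTG, 20.2% held the SNAIL and ZEB box on either strand, and 1.47% held both motifs, as the *Epcam* window did. A match is a run of letters, and no binding was measured here.

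*Cdh2*, encoding N-cadherin of nerve, muscle and mesenchymal cells, was low throughout. *Cdh2* had 196 and 102 counts in the WT samples, against 55 and 101 in MYC-KI, or 5.84 and 3.66 CPM against 1.62 and 2.26. Both MYC-KI samples lay below both WT samples. Its log2 fold change was -1.29 (standard error 0.38, adjusted p = 0.0968 from edgeR), and DESeq2 called it at -1.30 (adjusted p = 0.0271). Over the 10 alternatives the adjusted p-value ranged from 0.0271 to 0.368, and the log2 fold change from -1.59 to -0.91.

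The ratio of the cadherins was higher in both MYC-KI libraries. In WT there were 187.4 and 328.2 *Cdh1* counts for each *Cdh2* count, and in MYC-KI 765.0 and 539.4. The log2 ratio was 7.95 ± 0.57 in WT and 9.33 ± 0.36 in MYC-KI (SD, n = 2 each), a difference of 1.37, with p = 0.333 in an exact two-sided permutation test, the smallest that 2 samples against 2 allow. The ratio counts reads and is not corrected for transcript length, which is the same in every library.

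*Vim* encodes vimentin, the intermediate filament of mesenchymal cells. *Vim* (ENSMUSG00000026728.9, chromosome 2, 13573927 to 13582826, plus strand) had 6545 and 6299 counts in the WT samples, against 2303 and 6048 in MYC-KI. In CPM these were 195.0 and 225.8 in WT and 67.9 and 135.4 in MYC-KI. Both MYC-KI samples were low, but MYC-KI rep1 was at 0.501 times the level of MYC-KI rep2. The log2 fold change was -1.05 (standard error 0.35, adjusted p = 0.121 from edgeR). It was -0.63 without MYC-KI rep1 and -1.63 without MYC-KI rep2, and over the alternatives the adjusted p-value ran from 0.00844 under DESeq2, which called the gene, to 0.392.

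The ZEB factors are zinc-finger repressors of *Cdh1* that are also expressed in stromal cells and, for *Zeb2*, in macrophages. *Zeb2* (ENSMUSG00000026872.17, chromosome 2, 44983632 to 45117395, minus strand) had 1352 and 1380 counts in the WT samples, against 563 and 925 in MYC-KI. The normalized level fell from 40.3 and 49.5 CPM to 16.6 and 20.7. All of the WT values were above all of the MYC-KI values, and samples of a genotype lay closer to each other than the genotypes did. The log2 fold change of *Zeb2* was -1.27, a level 0.416 times that of WT (standard error 0.18, adjusted p = 0.0287 from edgeR). Without WT rep1 it was -1.41 (adjusted p = 0.196) and without WT rep2, which leaves samples with low *Xist*, -1.11 (adjusted p = 0.238), and in these fits edgeR called 0 genes of the whole table, with 3554 and 3410 under an unadjusted p-value of 0.05. The adjusted p-values of *Zeb2* over the 10 alternatives ran from 2.41e-07 to 0.238, with 7 calls. The antisense row *Zeb2os*, which overlaps *Zeb2* in the annotation, had 12 to 18 counts, and strand use in the counting is not given in the sources used here.

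*Zeb1* did not separate as clearly. It had 1220 and 965 counts in the WT samples, against 562 and 1350 in MYC-KI, or 36.4 and 34.6 CPM against 16.6 and 30.2. MYC-KI rep1 was low and MYC-KI rep2 lay near WT. The log2 fold change of *Zeb1* was -0.60 (standard error 0.31, adjusted p = 0.252 from edgeR). It was -0.23 without MYC-KI rep1 and -1.10 without MYC-KI rep2, where the gene was called (adjusted p = 0.0229, the lowest of its alternatives, which ran to 0.538).

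The SNAIL factors and TWIST1, which act early in the transition, were rare in these stomachs. *Snai1* had 100 and 133 counts in the WT samples, against 96 and 73 in MYC-KI, or 2.98 and 4.77 CPM against 2.83 and 1.63. *Snai2* had 181 and 130 counts in the WT samples, against 91 and 165 in MYC-KI, or 5.39 and 4.66 CPM against 2.68 and 3.69. *Twist1* had 25 and 46 counts in the WT samples, against 13 and 29 in MYC-KI, or 0.745 and 1.65 CPM against 0.383 and 0.649. The values of each gene lay lower in MYC-KI, with little space between the genotypes for *Snai1* and *Twist1*. Their log2 fold changes were -0.80, -0.65 and -1.19 with standard errors of 0.44, 0.29 and 0.60, and the adjusted p-values from edgeR of 0.279, 0.199 and 0.246 did not pass. With each sample left out in turn *Snai1* ranged from -1.24 without MYC-KI rep1 to -0.42 without WT rep2, and was -0.45 without MYC-KI rep2. *Twist1* ranged from -1.66 without WT rep1 to -0.52 without WT rep2. *Snai2* ranged from -0.90 without MYC-KI rep2 to -0.44 without MYC-KI rep1. None of the 3 was called in any alternative run on the assigned names. With scaling by library size alone, which moves the median log2 fold change of all genes from 0.01 to 0.23, no gene of the 10 changed direction.

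**Figure D2:**
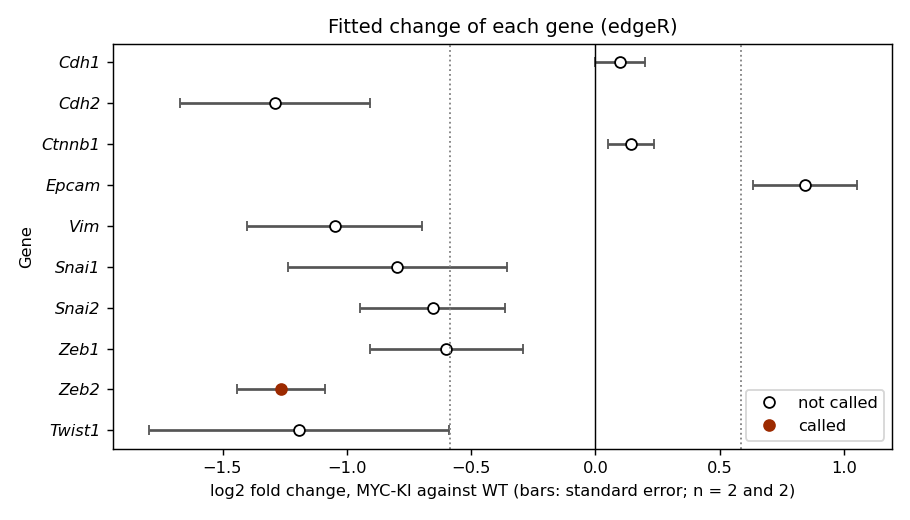
Fitted log2 fold change of each gene in MYC-KI against WT from edgeR (points, with bars of 1 standard error; n = 2 libraries per genotype). Dotted lines mark an absolute log2 fold change of 0.585. *Zeb2* at -1.27 is the called gene, and *Epcam* at 0.84 stands to the right.

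CPM were divided by kilobases of exon, the union of all GENCODE M21 exons of a gene, to set genes roughly beside each other. This length was 19942 bases for *Zeb2*, 2021 for *Snai2* and 1621 for *Snai1*. The union can be longer than the transcripts expressed, so the order of the factors depends on the length used. *Cdh1* was the highest of the 10 in WT at 250.8 ± 16.3 CPM per kb (SD, n = 2). *Epcam* at 161.8 ± 5.97 and *Ctnnb1* at 158.9 ± 7.48 did not differ beyond their spread. *Vim* came next at 44.4 ± 4.59. The factors lay far lower, at 3.46 ± 0.12 for *Zeb1*, 2.49 ± 0.26 for *Snai2*, 2.39 ± 0.78 for *Snai1* and 2.25 ± 0.33 for *Zeb2*, of which the last 3 overlap. *Twist1* (0.735 ± 0.393) and *Cdh2* (0.589 ± 0.192) were lowest and overlapped too. In MYC-KI *Epcam* reached 290.4 ± 79.1 CPM per kb beside 268.9 ± 3.23 for *Cdh1*, within the spread, and *Ctnnb1* stayed at 175.6 ± 1.27. *Zeb2* (0.935 ± 0.146) then lay under *Snai2* (1.58 ± 0.354) and overlapped with *Snai1* (1.38 ± 0.522).

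Markers of fibroblasts, vessels and some leukocytes were lower in the same libraries, and those of smooth muscle did not pass. The summed level of 7 fibroblast markers was 2082 and 2307 CPM in WT and 577.9 and 1027 in MYC-KI, and 3 of the 7 (*Col1a1*, *Col3a1* and *Pdgfra*) were called lower and none higher. Of 8 smooth muscle markers edgeR and DESeq2 called 0, with 0 by unadjusted p-values under 0.05, and their sum overlapped between the genotypes, at 8000 and 5090 CPM in WT and 2632 and 5575 in MYC-KI. Of 7 tested endothelial markers 6 were called lower, with sums of 364.9 to 370.5 CPM in WT and 145.9 to 161.0 in MYC-KI. Of 10 tested leukocyte markers 4 were called lower, with sums of 132.6 to 147.8 against 58.6 to 71.6. The 4 were *Adgre1*, *Itgam*, *Csf1r* and *Coro1a*, while *Ptprc*, found on all leukocytes, and *Cd3e* of T cells had log2 fold changes of -0.04 and 0.12. No marker in these 4 lists was at 3 counts or fewer in a genotype. In bulk tissue fewer cells of a type and less RNA per cell cannot be told apart, and the part of these cells in the values of *Vim*, *Zeb1* and *Zeb2* was not tested.

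Set against the fibroblast sum of the same library, a measure chosen after the values were seen, *Vim* stood at 9.37% and 9.79% in WT and 11.8% and 13.2% in MYC-KI. *Zeb1* stood at 1.75% and 1.499% against 2.87% and 2.94%. Against this list both were higher in MYC-KI, the opposite of their CPM. *Zeb2* stood at 1.93% and 2.14% in WT and 2.87% and 2.02% in MYC-KI, and so overlapped. Against the leukocyte sum *Zeb2* was at 30.4% and 33.5% in WT and 23.2% and 35.3% in MYC-KI, again overlapping. The measure depends on the list taken. *Vim* overlapped between the genotypes against the smooth muscle, endothelial and leukocyte sums, the last at 147.1% and 152.8% in WT and 94.8% and 231.1% in MYC-KI. *Zeb1* overlapped against the smooth muscle and leukocyte sums, and against the endothelial sum it was at 9.81% and 9.48% in WT and 10.3% and 20.7% in MYC-KI. *Snai2* too was higher against the fibroblast sum, at 0.259% and 0.202% in WT and 0.464% and 0.360% in MYC-KI, and against the endothelial sum. *Cdh2* was lower against the smooth muscle sum, at 0.0730% and 0.0718% against 0.0616% and 0.0406%, and overlapped against the other lists. *Snai1* and *Twist1* overlapped against all 4 sums.

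**Figure D3:**
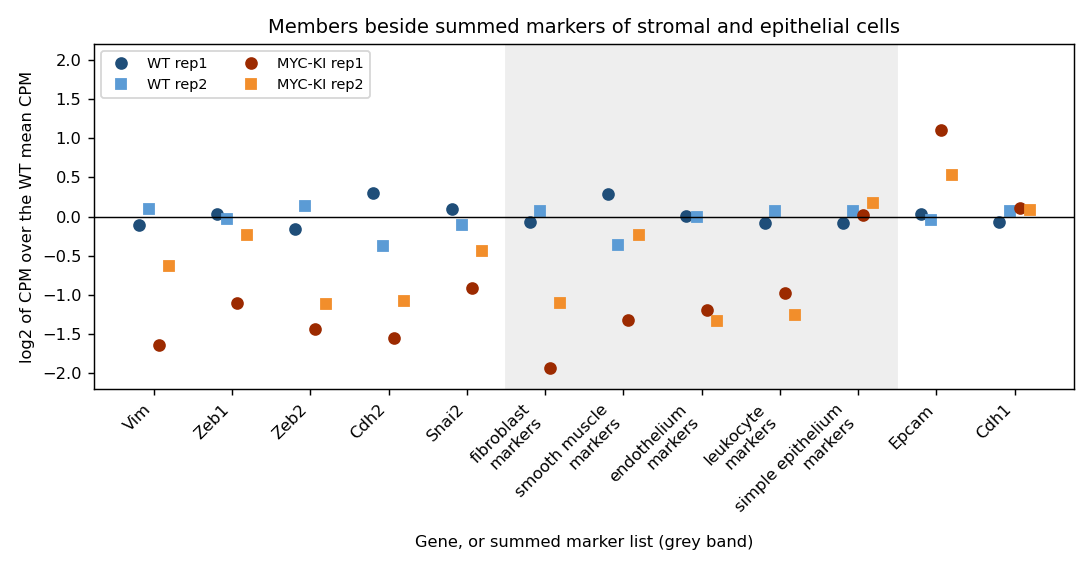
Log2 of the CPM in each library over the mean CPM of WT, for members and, in the grey band, for summed marker lists of other cell types. *Vim* in MYC-KI rep1 and rep2 stands at -1.63 and -0.64, beside -1.93 and -1.10 for the fibroblast markers, while *Cdh1* and the simple epithelium markers stay within 0.18 of the WT mean.

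On the epithelial side the lists differed among themselves. Of 6 markers of simple epithelium edgeR and DESeq2 called 0, with 2 higher by unadjusted p-values under 0.05, and their sum was 8190 and 9076 CPM in WT and 8729 and 9755 in MYC-KI. Of 7 markers of the squamous forestomach both tools called 0, with 0 by unadjusted p-values under 0.05, and the sum was 2415 and 1371 CPM in WT and 797.4 and 4113 in MYC-KI. Parietal and chief cell markers were lower as whole lists, with 6 of 6 and 4 of 4 called lower, and 4 of 6 mucous cell markers were called lower. *Atp4b*, whose promoter drives the Cre, was among them with a log2 fold change of -5.82 (adjusted p = 0.00635 from edgeR). Of the 3 tested markers of the exocrine pancreas 2 were called lower, and 0 of 7 neuronal and glial and 0 of 4 fat and mesothelial markers were called by edgeR, with 3 and 2 lower at an unadjusted p-value under 0.05 and 0 and 1 by DESeq2. *Cdh1* stood 0.11 and 0.088 above the WT mean on the log2 scale in MYC-KI rep1 and rep2, where the parietal markers had a median log2 fold change of -4.61.

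Of 164 other genes of adhesion and transition in 10 lists, 150 were tested, and 8 were called higher and 12 lower, 5.33% and 8.00% beside 5.65% and 5.08% of all tested genes. Of the lower calls 9 lay in the lists of mesenchymal matrix and of filaments, whose genes are also those of normal stroma and nerve. Of 20 genes for mesenchymal matrix and its receptors 6 were called lower and 0 higher. By an unadjusted p-value under 0.05 there were 15 lower and 1 higher, and DESeq2 called 12 lower and 0 higher. The median log2 fold change of that list was -1.08, against 0.01 over all tested genes. *Mmp9* and *Mmp2*, the gelatinases, had log2 fold changes of -1.96 and -1.52 (adjusted p = 0.0462 and 0.0444 from edgeR). Of the other 4, the 3 fibroblast markers named above (*Col1a1*, *Col3a1* and *Pdgfra*) are counted in both lists. Of 10 non-keratin intermediate filament genes 3 were called lower, among them *Nefm*, a neurofilament gene (-2.73), and *Nes*, encoding nestin (-0.95).

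Among 10 tested cadherins 2 were called lower. *Cdh5*, the cadherin of vessel walls, was at 51.9 and 53.5 CPM in WT and 26.3 and 26.3 in MYC-KI, a log2 fold change of -1.004 (adjusted p = 0.0180 from edgeR). *Cdh11*, a cadherin of fibroblasts, was at 26.8 and 22.8 CPM against 8.70 and 11.8, a log2 fold change of -1.27 (adjusted p = 0.0366). *Cdh5* is also 1 of the endothelial markers counted above. No cadherin of the list was called higher by edgeR or DESeq2, and 0 were higher by an unadjusted p-value under 0.05.

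The junction partners of *Cdh1* and *Ctnnb1* were not called. Of 22 tested catenins, nectins and linker genes edgeR called 0, with 2 higher and 6 lower at an unadjusted p-value under 0.05, and DESeq2 called 1 higher. The median log2 fold change of the list was -0.21. In the desmosome, the junction that ties keratins to the membrane, 1 of 14 tested genes was called, *Pkp2* (plakophilin), which rose from 38.6 and 41.2 CPM to 69.7 and 64.7 (log2 fold change 0.75, adjusted p = 0.0232).

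Of 13 genes around *Epcam*, among them its membrane partners and its proteases, 1 was called. *Cd9*, a tetraspanin found with EpCAM at the membrane, rose from 208.6 and 183.6 CPM to 363.6 and 420.0 (log2 fold change 0.999, adjusted p = 0.0239 from edgeR). *Cldn7*, a claudin gene chosen after its values were seen, had a log2 fold change of 0.91 with a standard error of 0.53 and did not pass.

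Of 13 regulators that keep cells epithelial, 2 were called higher and 1 lower. *Klf5*, a factor of dividing gut epithelium, rose from 128.0 and 118.2 CPM to 270.8 and 253.8, and *Foxa1* from 204.1 and 218.6 to 344.1 and 350.6. *Foxa2*, a related forkhead factor, went the other way, from 55.9 and 62.0 CPM to 14.9 and 16.4 (log2 fold change -1.91, adjusted p = 0.0122 from edgeR). The log2 fold changes of *Klf5* and *Foxa1* were 1.09 and 0.72.

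Of 15 other factors linked to the transition 2 were called, both higher. *Fosl1*, an AP-1 subunit, rose from 2.29 and 2.58 CPM to 8.08 and 11.5 (log2 fold change 2.01, adjusted p = 0.0287 from edgeR), and *Sox4* from 30.7 and 39.8 to 74.4 and 69.4 (log2 fold change 1.03, adjusted p = 0.0309). Of 18 cofactors and turnover enzymes of SNAIL and ZEB proteins 1 was called, the arginine methyltransferase gene *Prmt5*, at 0.97. Of 15 tested partners and targets of β-catenin 1 was called, the G1 cyclin gene *Ccnd1*, which rose from 129.8 and 142.6 CPM to 229.1 and 230.4 (log2 fold change 0.75).

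**Figure D4:**
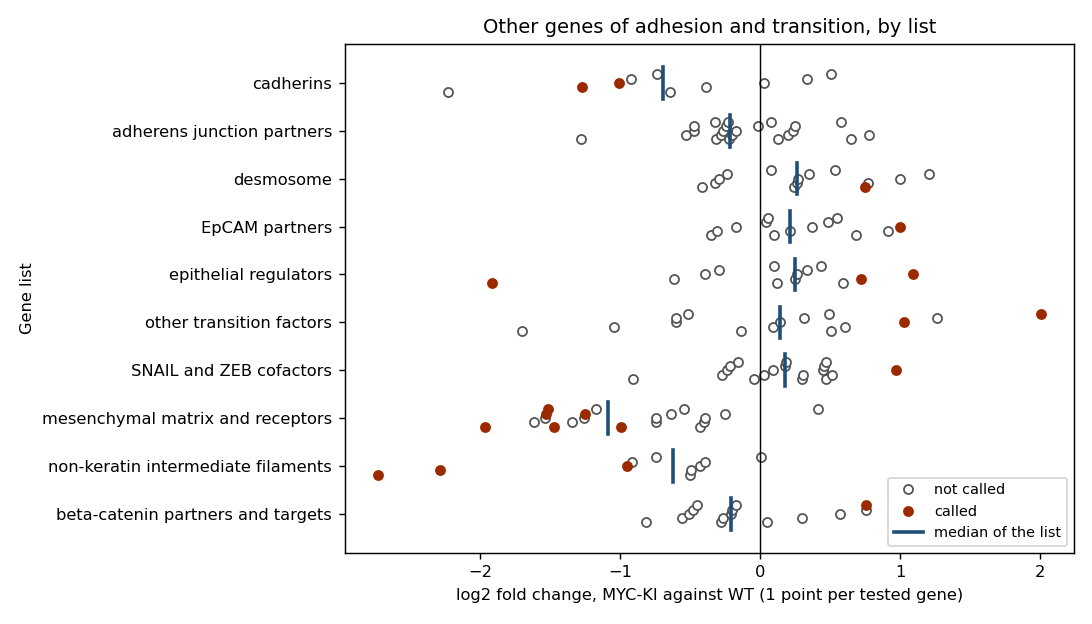
Log2 fold change in MYC-KI against WT of each tested gene in 10 lists, with 1 point per gene (filled, called by edgeR) and a bar at the median of the list. The mesenchymal matrix list lies mostly below 0, with a median of -1.08. The desmosome, EpCAM partner and epithelial regulator lists have medians of 0.27, 0.21 and 0.25. The log2 fold changes of their summed CPM were -0.04, 0.21 and 0.11. The desmosome sum overlapped between the genotypes, at 2851 and 2819 CPM in WT and 2154 and 3348 in MYC-KI.

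With the names as deposited, 9 of the 10 genes were called, 3 higher and 6 lower, where 84.1% of all tested genes were called. The MYC-KI counts beside *Cdh1* were then 363 and 477, and those beside *Vim*, *Snai1* and *Snai2* were 0. Those beside *Twist1* were 1463 and 1381, and beside *Cdh2* 391 and 918. Re-assignment gives these counts to *Cdca5*, *Vav2* and *Cdh13* in the order of *Cdh1*, *Twist1* and *Cdh2*. *Epcam*, whose counts are the same in both tables, had a log2 fold change of 0.90 there and was called (adjusted p = 0.0160 from edgeR).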

How the data were processed

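Stomach RNA was sequenced from 2 WT and 2 MYC-KI samples. The authors deposited raw counts per gene symbol in 1 table, without normalization; per the labels reads were aligned with HISAT2 to mm10. The counting tool and annotation are not given in the sources used here. Both MYC-KI columns were assigned, in row order, to the names sorted by character code. edgeR 4.0.16 in R 4.3.3 was used (TMM, filterByExpr, glmQLFit, glmQLFTest, Benjamini-Hochberg adjustment), and standard errors are the absolute log2 fold change over the square root of F. CPM values are scaled by TMM library sizes. Depth was 30260305 to 41463647 counts per sample, which with 2 samples per genotype limits precision. The members and lists were chosen with earlier results of these data known. Besides the members, up to 2 called genes per list and direction are named, by size of change, among those averaging 1 or more in log2 CPM. Outside this rule, *Myc*, *Atp4b*, *Xist*, *Zeb2os*, *Cldn7*, single cell type markers and the genes that share counts with members in the deposited order are named, chosen after their values were seen. Alternatives were DESeq2 1.42.0, its size factors, library size, no filter, at least 10 counts in every sample, a replicate block, other fold thresholds, the deposited order and each sample left out. Both tools were tested on simulated data of 17643 genes, of which edgeR's filter kept 17247. Positions are from GENCODE M21 (GRCm38), promoters from RefSeq (GRCm38.p6).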

Additional observations from a re-analysis of the deposited data

How the results depend on the processing

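The number of genes called, 1892 on the assigned names, was 3232 under DESeq2, 3011 with library size (75.5% of calls higher against 52.6%), 1113 at an absolute log2 fold change above 1 and 18580 in the deposited order. When each sample was left out it ranged from 0 to 2470. The 0 holds without WT rep1 and without WT rep2, where edgeR gave 3554 and 3410 genes an unadjusted p-value under 0.05, and DESeq2 was not run on 3 samples. In those fits the lone sample is assumed to vary like the other genotype. Members called higher were 1 under DESeq2, with library size and with no filter, which was *Epcam* each time, 3 in the deposited order, and 0 to 1 when each sample was left out. Members called lower were 3 under DESeq2, 2 with no filter, 6 in the deposited order, and 0 to 3 with samples left out. List genes called higher were 19 with library size, 41 in the deposited order, 3 above a log2 fold change of 1 and 0 to 12 with samples left out, and those called lower were 21 under DESeq2, 19 with no filter, 77 in the deposited order and 0 to 27. The difference in the log2 ratio of *Cdh1* to *Cdh2* ranged from 0.97 to 1.78 and that of *Epcam* to *Cdh1* from 0.45 to 0.98. In the deposited order these were -8.48 and 7.56, and the fold changes of *Cdh1*, *Cdh2* and *Twist1* turned to -6.68, 1.83 and 5.02; there the names carry other genes' counts. Of 100 other member values, 88 kept their side of the threshold, 9 passed it and 3 lost it, and none changed sign. Otherwise the cause of these shifts was not tested.

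With the replicate number as a block 114 genes were called (23.7% higher), 0 members lower, and of the list genes 0 higher and 1 lower. *Zeb2* was at -1.27 (adjusted p = 0.0541). The labels do not say that a number marks a shared litter or day. The deviations of same-numbered samples correlated at 0.067 over 17643 genes. With so few samples, and WT samples that differ in *Xist*, this cannot tell whether same-numbered samples share more than a number.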
